A study of Danio rerio with 5 samples.

Results

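Cyclins and cyclin-dependent kinases drive the fast cleavage divisions of the zebrafish blastula, and 10 of their genes are described here across 5 libraries of whole zebrafish (Danio rerio) embryos. The members were the genes with the symbols ccna1, ccna2, ccnb1, ccnb2, ccnb3, ccne1, ccne2, ccnd1, cdk1 and cdk2, and each symbol matched 1 of the 32520 genes in the deposited tables. The embryos were collected at 4 hours after fertilisation. In 2 knockdown libraries they carried RfxCas13d, an RNA-guided nuclease that cuts target transcripts, together with pooled guides. The smaller pool held 10 guides, 1 of them directed at szrd1, and the larger pool held 25, again including that guide. The other 3 libraries came from RfxCas13d controls, replicates 1 to 3. No guide target other than szrd1 is given in the sources used here. The design asks whether efficient guides can be found by injecting many at once. Each pool was 1 library, and the controls are not stated to be separate clutches, so the p-values rest on the variation among these particular libraries, which may be technical.

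A cyclin is the regulatory subunit that activates a cyclin-dependent kinase (Cdk) and is destroyed at a set point of the cell cycle. Cyclins A and B act with Cdk1 to bring cells into mitosis, cyclin E acts with Cdk2 at the start of DNA replication, and cyclin D links growth signals to exit from the first gap phase. The egg stores cyclin mRNAs, and the early embryo cycles rapidly between replication and mitosis without gap phases. The cycle lengthens as zygotic transcription begins, and stored maternal transcripts are cleared in the same period.

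Gene counts totalled 6872714 in the pool of 10, 6528043 in the pool of 25 and 5283761 to 14179837 in the controls, with control replicate 3 the shallowest. Entries that name no gene took 53.8% of the reads of control replicate 3 and 26.7% to 33.9% of the other libraries. Most of these in control replicate 3 were unmapped reads, at 44.0% of its reads, against 13.1% to 21.0% in the other libraries. Control replicates 1 and 2 were prepared at 1/4 of the Nextera XT reaction volume, while control replicate 3 and both pools were prepared at 1/8. The volume is thus partly confounded with the comparison. The targeted transcript szrd1 was at 41.3 CPM (read counts scaled to library size, with TMM normalisation) with 10 guides and 45.6 CPM with 25 guides, against 221, 278 and 311 CPM in control replicates 1 to 3. All 6 maternal egg markers and all 6 germ plasm markers were detected in every library, and so were all 8 markers of the enveloping layer, the outer epithelium. Of the yolk syncytial layer markers, mxtx2, at 204 to 371 TPM, mxtx1, hnf4a and gata6 were detected in every library, while apobb.1 was listed at 0 TPM in 4 libraries and apoa1b was at most 0.19 TPM. afp4 had 1 entry at 1.95 to 70.6 TPM and another at most 1.84 TPM, and apoa2 was at most 2.29 TPM. sox2 was at most 0.37 TPM, while the other deep-cell markers nanog, pou5f3, sox19b and sox3 were all above 100 TPM. In bulk RNA, fewer cells of a type and less RNA per cell cannot be told apart.

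Levels were compared between genes on the deposited TPM (transcript abundance scaled for transcript length and library size). The mitotic cyclins ccnb1, ccna1 and ccnb2 were the most abundant members. ccnb1, which encodes the B-type cyclin that activates Cdk1 at mitotic entry, was at 2520 TPM in the pool of 10 and 2414 TPM in the pool of 25, against 2601, 1962 and 2625 TPM in control replicates 1 to 3. ccna1, the A-type cyclin known in vertebrates from the germ line and the early embryo, was at 2278 TPM in the pool of 10 and 2919 TPM in the pool of 25, against 2847, 1580 and 2375 TPM in the controls. The pools lay within the control range for ccnb1, and the pool of 25 just above it for ccna1. Neither gene stood above the other throughout, since ccnb1 was the higher in 3 of 5 libraries. Ranked among all genes, ccnb1 was 13th in both pools and between 14th and 33rd in the controls. ccna1 was 16th in the pool of 10, 9th in the pool of 25 and between 16th and 46th in the controls. ccnb2, the second B-type cyclin, was at 1102.5 TPM in the pool of 10 and 1235 TPM in the pool of 25, against 1261, 839 and 912 TPM in the controls, and lay below both in all 5 libraries.

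The remaining members were at lower levels, and the kinases were scarcer than the main mitotic cyclins at the RNA level. ccne1, an E-type cyclin that activates Cdk2, was at 582 TPM in the pool of 10 and 688 TPM in the pool of 25, against 355, 334 and 408 TPM in control replicates 1 to 3. ccna2, the A-type cyclin of somatic replication and mitosis, was at 397 and 431 TPM in the pools of 10 and 25, against 330, 263 and 490 TPM in the controls. ccne1 exceeded ccna2 in 4 of 5 libraries, and the difference of their control means (366 ± 37.9 against 361 ± 117 TPM, SD, n = 3) was within their spread. cdk2, the kinase partner of cyclins E and A, was at 358 TPM in the pool of 10 and 299 TPM in the pool of 25. In control replicates 1 to 3, cdk2 was at 149, 112 and 290 TPM. Control replicate 3, at 1/8 library volume like the pools, was thus near them for cdk2 and well above the other controls. Its log2 ratio to the mean of control replicates 1 and 2 was 1.15 in TPM and 0.41 in CPM. The markers of the deep-cell blastoderm, of which 4 of 5 were above 100 TPM and sox2 was near 0, summed to 2360 TPM in the pool of 10 and 2356 TPM in the pool of 25, against 1194, 1209 and 2625 TPM in the controls. This sum set control replicate 3 beside the pools in the same way, but sox19b did not. sox19b was at 359 and 352 TPM in the pools of 10 and 25, against 116, 122 and 169 TPM in the controls. The germ plasm markers summed to 1335 and 1224 TPM in the pools, against 723, 566 and 956 TPM in the controls. Of them, nanos3 and dazl were lowest in control replicate 3. In CPM the 4 deep-cell markers tested had a median log2 fold change of 0.03 in both pools, with 2 of 4 below 0. The part of these markers in the cdk2 values was not tested.

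ccnd1, a D-type cyclin that acts with Cdk4 and Cdk6, was at 114 and 138 TPM in the pools of 10 and 25, against 55.9, 72.9 and 144 TPM in control replicates 1 to 3. It stood below cdk2 in all 5 libraries and overlapped with cdk1. cdk1, the kinase that drives mitosis, was at 53.4 TPM in the pool of 10 and 75.5 TPM in the pool of 25, against 62.2, 73.8 and 60.2 TPM in the controls, with no library far from the others. ccnb3, a further cyclin with B-type features, was at 50.6 and 49.6 TPM in the pools, against 31.4, 38.1 and 34.4 TPM in the controls. ccne2, the second E-type cyclin, was the lowest member, at 13.2 TPM in the pool of 10 and 29.4 TPM in the pool of 25, against 7.21, 11.2 and 22.8 TPM in the controls. cdk1 stood above ccnb3, and ccnb3 above ccne2, in all 5 libraries. All 10 members together took 0.747% of all TPM with 10 guides and 0.828% with 25 guides, against 0.77%, 0.529% and 0.736% in the controls. ccna1, ccnb1 and ccnb2 made up 79% of that sum with 10 guides and 79.3% with 25 guides, and 80.3% to 87.1% of it in the controls.

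**Figure D1:**
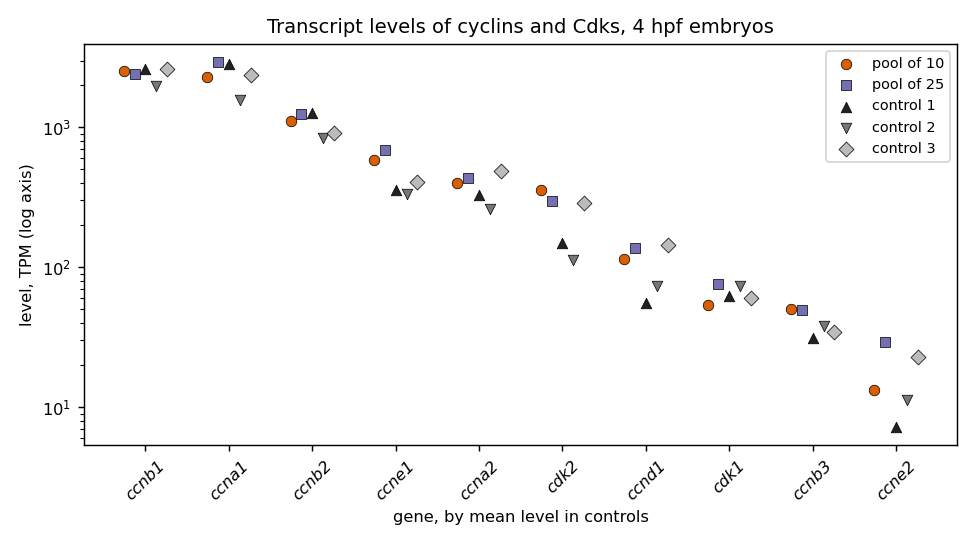
Level of each member in TPM (log axis) in the pool of 10, the pool of 25 and control replicates 1 to 3, with genes ordered by their mean in the controls. ccnb1 and ccna1 lie at the top and overlap, while ccne2 lies lowest, between 7.21 and 29.4 TPM.

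Changes with the pools were tested on normalised read counts with edgeR's quasi-likelihood test, adjusted by the Benjamini-Hochberg method over 16445 genes, and all 10 members passed the filter on low counts. No member passed an adjusted p of 0.05 in the pool of 10, the pool of 25 or both pools together. The share of all genes called was 0.0% in each of the 3 comparisons, so the result does not set the members apart. szrd1 was tested too and not called, though the pools of 10 and 25 were at 15.3% and 16.9% of its control mean. The lack of calls thus does not show that levels were unchanged. At an unadjusted p under 0.05 there were 0 members in each comparison. Of the 16445 genes, 296 were lower and 234 higher in the pool of 10, and 302 and 200 in the pool of 25. In both pools together 1096 were lower and 653 higher. Against these backgrounds, 0 of 10 does not set the members apart. DESeq2 also called 0 members, and 9, 9 and 106 of all genes in the pool of 10, the pool of 25 and both pools. The median log2 fold change of the members was -0.32 in the pool of 10, -0.22 in the pool of 25 and -0.19 in both pools, beside -0.11, -0.12 and -0.08 over all genes tested. For the members, the 2 comparisons of single pools share the same controls. The fit of both pools together treats the pools of 10 and 25 as replicates, so their difference enters its spread.

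Among the mitotic cyclins, ccnb1 had the lowest fitted value. It was at 1542 CPM in the pool of 10 and 1788 CPM in the pool of 25, against 3276, 2229 and 1887 CPM in control replicates 1 to 3. Both pools lay below all controls, the nearest being control replicate 3. With both pools against the controls its fitted log2 fold change came to -0.57 (SE 0.342, 95% interval -1.33 to 0.20, adjusted p = 0.517). Without control replicate 3 both pools were at 1/8 volume and all controls at 1/4, so pool and volume cannot be told apart. In that fit ccnb1 was called lower (-0.73, adjusted p = 0.0376), as were 12.8% of all genes, with 11.9% called higher. With a term for the library volume, which sets the pools against control replicate 3 alone, it came to -0.18 (SE 0.274, adjusted p = 0.882). Control replicate 3 itself had a log2 ratio of -0.54 to the mean of control replicates 1 and 2.

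ccna1 was at 2108 CPM in the pool of 10 and 2518 CPM in the pool of 25, against 4124, 2408 and 2164 CPM in control replicates 1 to 3. The pools lay around control replicates 2 and 3, and control replicate 1 was high. Its log2 fold change in both pools was -0.33 (SE 0.358, interval -1.12 to 0.47, adjusted p = 0.709), and 0.01 without control replicate 1. ccnb2 was at 913 and 955 CPM in the pools of 10 and 25, against 1633, 1166 and 731 CPM in the controls (log2 fold change -0.33, SE 0.387, adjusted p = 0.723). The pools lay inside the control range for ccnb2, between control replicates 2 and 3. With the volume term its log2 fold change was 0.35. ccna2 had the narrowest spread of the members in CPM, with a coefficient of variation of 8.29% in the controls, but one of 32.4% in TPM, where ccnb3 was narrowest (9.67%). It was at 1143 and 1180 CPM in the pools of 10 and 25, against 1515, 1290 and 1361 CPM in the controls, so that both pools lay below all controls (log2 fold change -0.26, SE 0.307, interval -0.94 to 0.42, adjusted p = 0.73). ccnb3 was at 47.4 and 37.8 CPM in the pools of 10 and 25, against 47.9, 62 and 29.6 CPM in the controls, and the groups overlapped (log2 fold change -0.13, SE 0.433).

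The 3 main mitotic cyclins were highest in control replicate 1 in CPM, and the markers of the enveloping layer were lowest in that library in TPM. In TPM, the unit of the markers, ccnb2 was highest there too, while ccnb1 was highest in control replicate 3 and ccna1 in the pool of 25. All 8 of these markers were detected in every library. Their summed level was 1190 TPM in the pool of 10 and 1245 TPM in the pool of 25, against 369, 1462 and 1451 TPM in control replicates 1 to 3. The most abundant of them, krt18a.1, was at 770 and 755 TPM in the pools of 10 and 25, against 258, 793 and 759 TPM in the controls. In the CPM fit of both pools the enveloping layer markers had a median log2 fold change of -0.77 (-0.61 with the volume term), with 7 of 8 below 0. The 6 maternal egg markers were all below 0, with a median of -0.68 (0.10 with the volume term), and so were the 5 yolk syncytial layer markers tested, with a median of -1.08 (-0.68 with the volume term). Of these marker genes 0 passed edgeR's test. In TPM the 6 mesendoderm markers also summed lowest in control replicate 1, at 139 TPM, against 232 to 326 TPM in the other libraries. Of them only ndr1 was not lowest there. The maternal egg markers summed highest in control replicate 1, at 2367 TPM, against 1440 to 1968 TPM in the other libraries. Of these, zar1, btg4 and zp2.3 were each highest in another library. The part of cell composition in the values of control replicate 1, or in those of the pools, was not tested.

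For the E- and D-type cyclins of the first part of the cycle the pools and the controls overlapped in CPM. ccne1 was at 583 CPM in the pool of 10 and 687 CPM in the pool of 25, against 670, 664 and 396 CPM in control replicates 1 to 3. Control replicate 3 was the low one, and the log2 fold change in both pools was 0.14 (SE 0.363, interval -0.67 to 0.95, adjusted p = 0.882). With the volume term it was 0.68 (SE 0.261, interval 0.10 to 1.26), the lowest unadjusted p of the members in that fit (0.0265), and it did not pass after adjustment (adjusted p = 0.492). At an unadjusted p under 0.05, 581 of the 16445 genes were lower and 917 higher in that fit. Against this background, 1 of 10 members does not set ccne1 apart. ccne2 was at 14.7 CPM (109 counts) in the pool of 10 and 31.6 CPM (231 counts) in the pool of 25, against 14.3, 23.7 and 24.4 CPM in the controls. The pool of 10 was thus near the lowest control and the pool of 25 above the highest. Set against the pool of 10, the pool of 25 had a log2 fold change of 1.10 for ccne2 (SE 0.834, interval -0.74 to 2.95, adjusted p = 1). ccnd1 was at 168 and 185 CPM in the pools of 10 and 25, against 159, 240 and 165 CPM in the controls (log2 fold change -0.09, SE 0.367, adjusted p = 0.922).

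The kinases had fitted values on either side of 0. cdk2 was at 336 CPM in the pool of 10 and 264 CPM in the pool of 25, against 220, 180 and 266 CPM in control replicates 1 to 3. The pool of 10 was above every control, while the pool of 25 was level with control replicate 3. Its fitted log2 fold change in both pools came to 0.44 (SE 0.356, 95% interval -0.36 to 1.23, adjusted p = 0.619), and 0.18 with the volume term. cdk1 was at 46.2 and 53.5 CPM in the pools of 10 and 25, against 73.2, 94.2 and 50 CPM in the controls. Control replicate 3 lay between the pools for cdk1, and its log2 fold change in both pools was -0.54 (SE 0.411, interval -1.46 to 0.37, adjusted p = 0.595), or -0.01 with the volume term. Without control replicate 3 it was -0.76 (adjusted p = 0.0587). In that fit pool and volume cannot be told apart, and 12.8% of all genes were called lower.

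**Figure D2:**
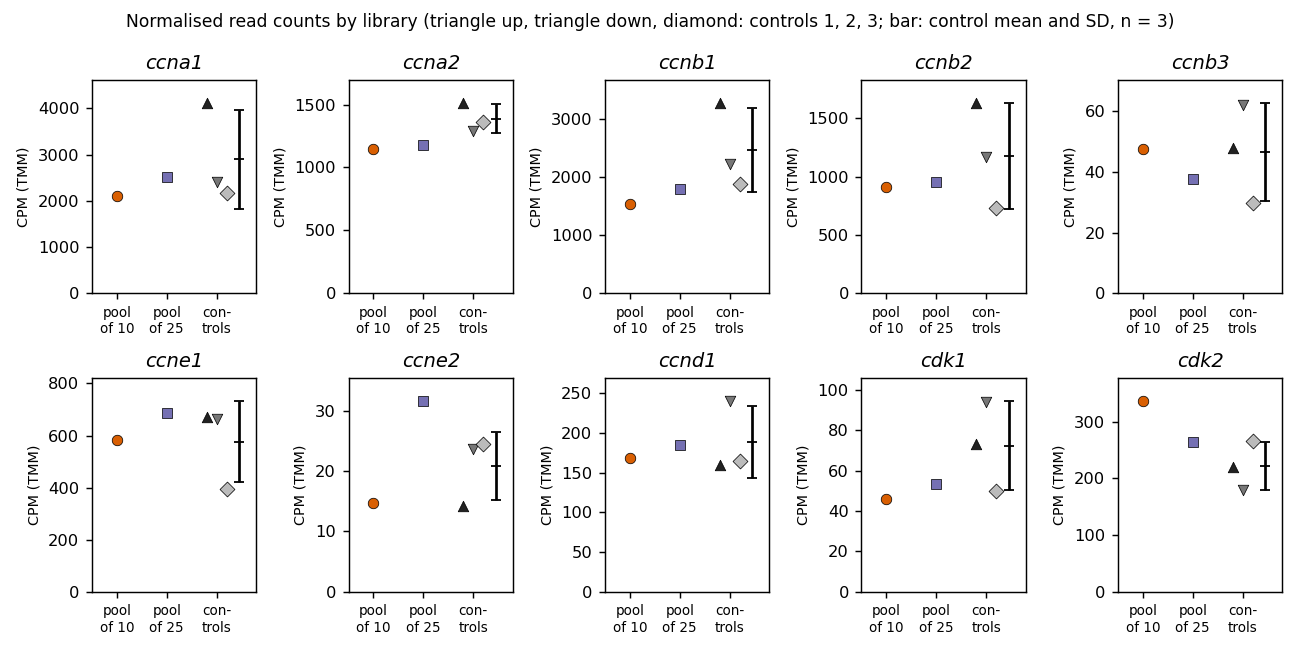
Normalised read counts (CPM, linear axes from 0) of each member by library, with the pools of 10 and 25 left of the 3 controls and the control mean ± SD (n = 3) beside them. Both pools lie below all controls for ccna2 and ccnb1, and the groups overlap for the other 8 genes.

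**Figure D3:**
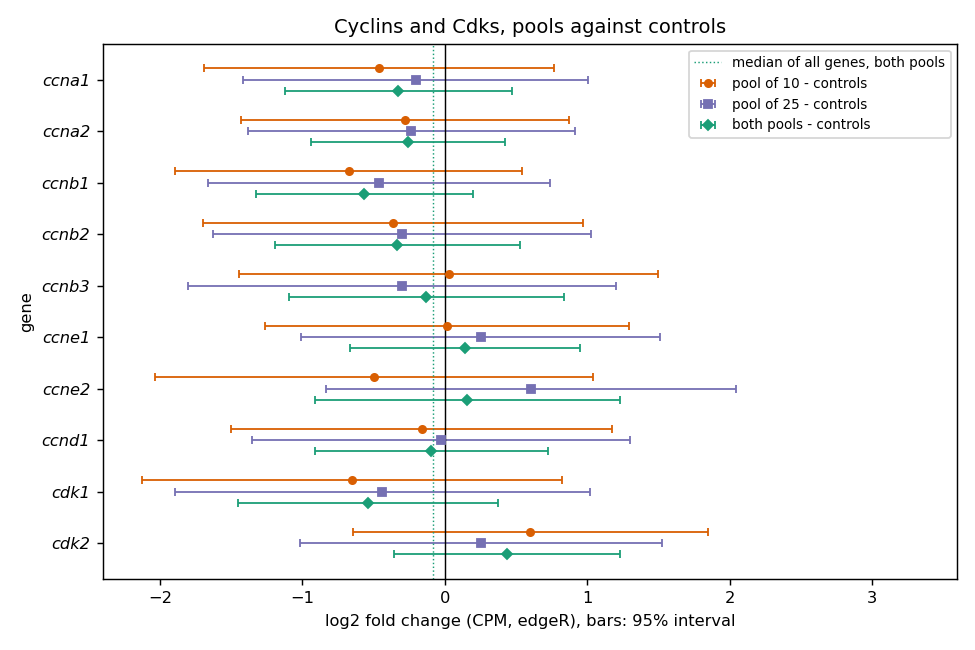
Log2 fold change of each member with its 95% interval in the pool of 10, the pool of 25 and both pools, each against the controls, with the median of all genes in both pools as a dotted line. Every interval spans 0, from cdk2 at 0.44 to ccnb1 at -0.57 in both pools.

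By size alone, 0 members lay at least 2-fold below or above every control in either pool. Over all genes tested, 0.566% lay at least 2-fold below and 1.06% above every control in the pool of 10, and 0.791% below and 0.973% above in the pool of 25. Both pools lay below all controls in CPM for 2 of the 10 members (ccna2 and ccnb1) and for 14.9% of all genes tested, and above all controls for 0 members and 14.6% of genes. In TPM both pools lay above all controls for 3 members (ccnb3, ccne1 and cdk2) and for 22.7% of all genes, and below for 0 members and 7.48% of genes. Among the 9609 genes with a mean of at least 10 CPM these backgrounds were 14.4% below and 16.9% above in CPM, and 6.4% below and 25.9% above in TPM. With 2 and 3 of 10 genes, the members' shares are near the background.

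The pool of 25 against the pool of 10 gave no member past the test, and again 0.0% of all genes. Log2 fold changes ranged from -0.35 for cdk2 (interval -1.93 to 1.23) to 1.10 for ccne2, with a median of 0.17 over the members and 0.00 over all genes. For ccna1, the interval of the difference was -1.21 to 1.72, and for ccnb1 it was -1.22 to 1.65. With 1 library a pool, these intervals give the differences compatible with the values under the fit. They are not limits of detection.

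As fitted, the direction of most values depended on the unit. In TPM the median log2 fold change of all genes in both pools was 0.36 (limma on log2(TPM + 1)), against -0.08 in CPM, so values are also given relative to these medians. Relative to them, only ccnb3 and ccnd1 turned in both pools, from -0.05 and -0.01 in CPM to positive values in TPM. ccnb1 stood at -0.57 in CPM and 0.05 in TPM, or -0.48 and -0.30 relative to all genes. cdk2 stood at 0.44 in CPM and 0.95 in TPM (unadjusted p = 0.0604, adjusted p = 0.48), or 0.52 and 0.59 relative to all genes. ccne1 stood at 0.14 in CPM and 0.79 in TPM (unadjusted p = 0.0293, adjusted p = 0.48), or 0.22 and 0.44 relative to all genes. cdk1 stood at -0.54 in CPM and -0.04 in TPM, or -0.46 and -0.39 relative to all genes. Relative to all genes, ccna2, ccnb1, ccne1, cdk1 and cdk2 kept their sign in the fit of both pools together under all 10 alternatives run. For 3 of them the value nearest to 0 was close to it, at -0.011 for ccna2, 0.011 for ccne1 and -0.029 for cdk1. In the single pools only ccnb1 of these genes did so in each. The sign was kept under 9 of 10 alternatives for ccna2 in each pool, ccne1 in the pool of 10, and cdk1 and cdk2 in the pool of 25. No member passed the test in TPM.

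**Figure D4:**
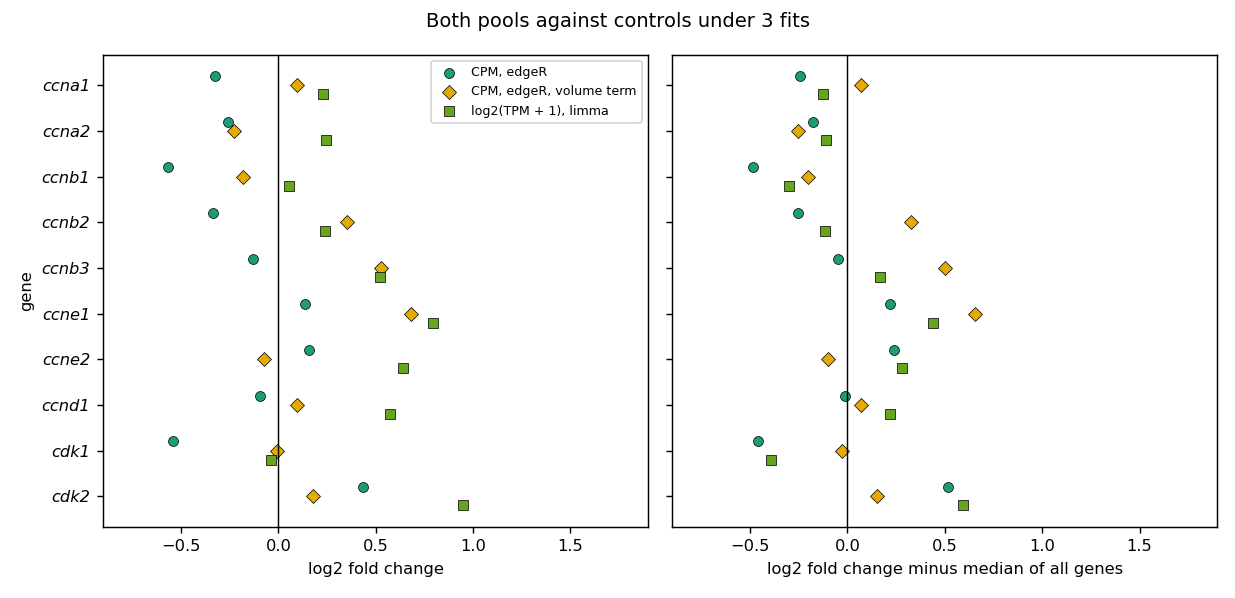
Log2 fold change of both pools against the controls for each member in 3 fits (CPM with edgeR, the same with a volume term, and log2(TPM + 1) with limma), as fitted (left) and minus the median of all genes in that fit (right). ccnb1 moves from -0.57 in CPM to 0.05 in TPM on the left, and lies at -0.48 and -0.30 on the right.

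Among the members, the number of counts behind 1 TPM differed most for ccnd1 between the libraries at 1/4 and at 1/8 volume. This number, set against its median over 7603 well-measured genes of the same library, was 1.40 with 10 guides and 1.36 with 25 guides, against 1.77, 1.9 and 1.11 in control replicates 1 to 3. The log2 difference of the libraries at 1/4 volume from those at 1/8 was 0.52 for ccnd1, at the 99.3rd percentile of these genes. It was 0.26 for ccne1 and 0.02 for ccna1. Control replicate 3 had a log2 ratio to control replicates 1 and 2 of -0.27 in CPM but 1.16 in TPM for ccnd1. For ccnb1 the same relative number ranged from 0.581 in the pool of 10 to 0.783 in control replicate 1. How the counts and the TPM were made is not given in the sources used here, and the cause of these gaps was not tested.

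Ratios between members within a library do not depend on its scaling. The ratio of ccna2 to ccna1 in TPM was 0.174 with 10 guides and 0.148 with 25 guides, against 0.116, 0.166 and 0.206 in control replicates 1 to 3, so ccna1 was the main A-type transcript in every library. The ratio of ccnb2 to ccnb1 was 0.438 and 0.512 in the pools, against 0.485, 0.428 and 0.347 in the controls. The ratio of ccne2 to ccne1 was 0.0226 and 0.0427 in the pools, against 0.0203, 0.0334 and 0.0559 in the controls. For all of these pairs the pools and the controls overlapped in TPM. In counts, the ratio of ccnb2 to ccnb1 was 0.592 and 0.534 in the pools, just above its values of 0.499, 0.523 and 0.388 in the controls. The ratio of ccnb3 to ccnb1 was 0.0201 and 0.0205 in the pools, against 0.0121, 0.0194 and 0.0131 in the controls, so the pools lay just above the highest control in TPM. In counts they overlapped for this pair. For these ratios no share over other pairs of genes was computed. cdk2 exceeded cdk1 by 6.70-fold with 10 guides and 3.96-fold with 25 guides, against 2.39-, 1.52- and 4.81-fold in the controls.

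The summed mitotic cyclins (ccna1, ccna2, ccnb1, ccnb2 and ccnb3) exceeded the summed E- and D-type cyclins (ccne1, ccne2 and ccnd1) by 8.95-fold in TPM with 10 guides and 8.24-fold with 25 guides. In control replicates 1 to 3 they did so by 16.9-, 11.2- and 11.2-fold. In counts the same ratio was 7.51 and 7.17 in the pools of 10 and 25, against 12.6, 7.71 and 10.5 in the controls. The pools were thus below every control in both units, though close to control replicate 2 in counts. Among single genes, both pools lay below all controls for 14.9% in CPM and 7.48% in TPM, and no such share was computed for sums. The E- and D-type sum holds ccnd1 and ccne1, whose counts behind 1 TPM differed most between the library volumes among the members. The sums were formed after the files were seen, and an exact permutation test of 2 pools against 3 controls cannot go below p = 0.1 (two-sided), so none is given.

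**Figure D5:**
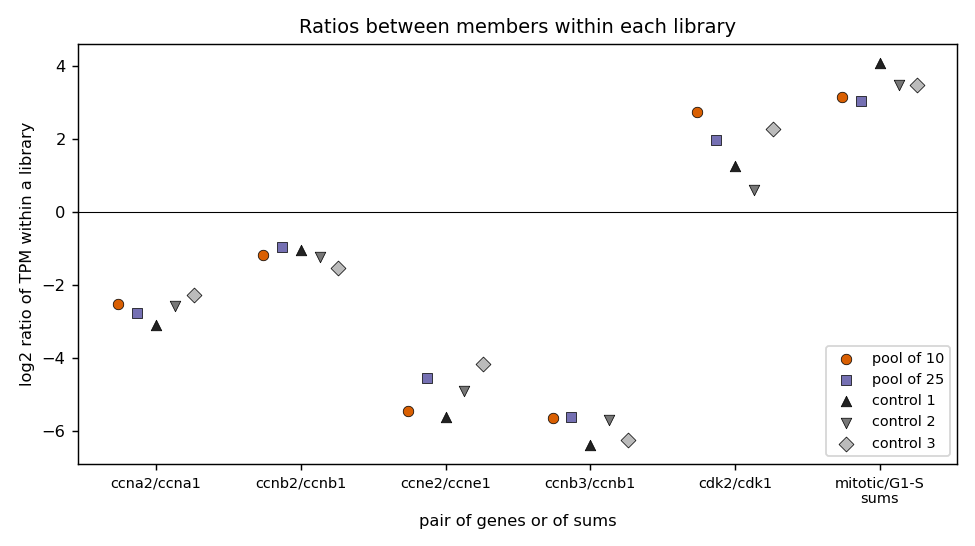
Log2 of the TPM ratio within each library for 5 pairs of members and for the summed mitotic over the summed E- and D-type cyclins, with the pools of 10 and 25 left of control replicates 1 to 3. The last ratio is lowest in the pools (8.95 and 8.24 on a linear scale, against 11.2 to 16.9 in the controls). Its sums were formed after the files were seen, and no share over comparable ratios was computed.

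The genes most like 3 of the members over the 5 libraries were found by the root mean square difference of centred log2(CPM + 1) among 9599 other genes with a mean of at least 10 CPM. They were adprhl2, pias4b and zgc:110591 for ccna1 (differences of 0.0408, 0.0491 and 0.0597). For ccnb1 they were sirt6, cbr1l and psmd4a (0.0578, 0.0605 and 0.0606), and for ccnd1 mtmr2, cdc42ep4b and pex26 (0.0439, 0.0526 and 0.0633). With 5 libraries many genes come close by this measure: 273, 385 and 261 genes lay within 0.2 of ccna1, ccnb1 and ccnd1.

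Other genes of the cell cycle were examined in 6 lists, and 0 genes of any list passed edgeR's test in any comparison. Nor did any other gene tested in the main fits, szrd1 included. Of the other cyclins, 21 of 22 were tested, with a median log2 fold change of 0.01 in both pools beside -0.08 over all genes. The most abundant was ccng1, cyclin G1, a target of p53 in mammals, at 2782 and 2195 TPM in the pools of 10 and 25, against 1783, 1719 and 2484 TPM in the controls, a level like that of ccna1. The 2 with the largest fold change were ccnh and ccnd2a. ccnh, a subunit of the Cdk-activating kinase, was at 68.1 and 58.4 CPM in the pools of 10 and 25, against 164, 148 and 84.6 CPM in the controls (log2 fold change -1.07, SE 0.419, adjusted p = 0.464, and -0.42 with the volume term). ccnd2a, a second D-type cyclin, was at 9.05 and 6.98 CPM in the pools, against 25.4, 20.9 and 2.94 CPM in the controls. Control replicate 3 was the lowest library for ccnd2a, and its log2 fold change of -1.04 became 1.44 with the volume term. Of 18 other cyclin-dependent kinases 14 were tested (median 0.30). cdk7, the partner of ccnh, was at 45.9 and 40.5 CPM in the pools against 129, 114 and 41 CPM in the controls, and its log2 fold change of -1.13 (SE 0.512, adjusted p = 0.465) became 0.08 with the volume term. cdk17 was at 19.6 and 22.4 CPM in the pools, against 6.89, 4.37 and 15.9 CPM in the controls. Its log2 fold change of 1.23 (SE 0.572, adjusted p = 0.465) became 0.40 with the volume term.

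Cdk inhibitors and small partners had a median of -0.69 in both pools over 14 tested of 17 measured, and of 0.16 with the volume term. cdkn1ca, which encodes an inhibitor of the p57 type, was at 76.9 and 72.4 CPM in the pools of 10 and 25, against 167, 267 and 71.1 CPM in the controls. The log2 fold change of cdkn1ca was -1.17 (SE 0.530, adjusted p = 0.465), and 0.07 with the volume term. Its paralog cdkn1cb was at 8.37 and 5.47 CPM in the pools, against 22, 50.3 and 8.31 CPM in the controls (log2 fold change -1.96, SE 0.711, adjusted p = 0.464, and -0.26 with the volume term). For both inhibitors control replicate 3 was level with the pools. The small Cdk-binding subunits CKS2 and cks1b were the most abundant of the list, at 480 and 352 TPM for CKS2 in the pools, against 439, 384 and 339 TPM in the controls.

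The kinases and phosphatases that act on Cdk1 and Cdk2 had a median of -0.17 in both pools over 11 genes, and of 0.37 with the volume term. cdc25b, the phosphatase that activates Cdk1, was at 356 and 372 TPM in the pools of 10 and 25, against 255, 246 and 367 TPM in the controls. wee2, a kinase of the family that inhibits it, was at 275 and 330 TPM in the pools, against 245, 152 and 285 TPM in the controls. mastl, the Greatwall kinase that restrains the phosphatase opposing Cdk1, was at 179 CPM in both pools, against 75, 56.9 and 135 CPM in the controls (log2 fold change 1.01, SE 0.427, adjusted p = 0.465, and 0.41 with the volume term). arpp19b, from the family of Greatwall substrates, was at 134 and 124 CPM in the pools, against 351, 360 and 96.1 CPM in the controls. Its log2 fold change of -1.06 (SE 0.544, adjusted p = 0.476) became 0.43 with the volume term.

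Genes for cyclin degradation had a median of 0.05 over 27 genes in both pools, and of -0.06 with the volume term. They hold the subunits of the anaphase-promoting complex, which marks cyclins A and B for destruction. Its small subunits anapc11 and anapc13 had the largest values. anapc11 was at 51.3 and 42.6 CPM in the pools of 10 and 25, against 208, 244 and 66.3 CPM in the controls (log2 fold change -1.88, SE 0.557, adjusted p = 0.464). anapc13 was at 4.19 and 6.57 CPM in the pools, against 27.7, 34.1 and 9.35 CPM in the controls (-2.14, SE 0.626, adjusted p = 0.464). With the volume term these were -0.50 and -0.80. The Rb and E2F list, which holds regulators of replication genes, had a median of 0.13 over 21 genes, and of -0.07 with the volume term. Its largest values were for lin52 (-1.79) and lin37 (-1.23), which encode subunits of the DREAM complex, a repressor of cell cycle genes. With the volume term they were -0.64 and -0.03.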

How the data were processed

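Per the labels' protocols, total RNA of whole embryos was made into Nextera XT libraries. The deposited gene counts are whole numbers with no normalisation. The deposited abundance values were taken to be TPM because their column sums fit that unit, which is not named. The submitters' processing notes name bcl2fastq 2.20 and the danRer11 build. No aligner, counter or strand setting is given in the sources used here. Entries that name no gene (26.7% to 53.8% of reads, highest in control replicate 3) were left out.

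CPM used TMM normalisation factors (R 4.3.3 with edgeR 4.0.16). Genes passed a minimum count of 10 in edgeR's filter. Fits over all 5 libraries held 3 groups (2 residual degrees of freedom, each pool assumed to vary like the controls) or 2 groups (3 residual degrees of freedom). With the volume term these fell to 1 and 2 residual degrees of freedom. The 2-fold rule required 10 CPM in every control (lower) or in the pool (higher). Alternatives were DESeq2 1.42.0, limma 3.58.1 on log2 TPM (pseudocounts of 1 and 0.1, same genes), other scaling, no filter, a volume term and leaving out each control. Scripts were tested on simulated counts with a fixed spread and no volume effect. That test required the right sign for planted changes and does not show what size of change these data can detect. The members and lists were chosen with earlier results of these data known. From each list the 2 genes with the largest fold change in both pools and a mean of at least 10 CPM were named, and others by their TPM level after values were seen. Of the lists, ccnl2, ccno, cntd1, cdc25a, cdc25c and emi1 were not matched. Sequences and coordinates are not used here.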

Additional observations from a re-analysis of the deposited data

How the results depend on the processing

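No paired analysis was possible because each pool was a single library with no replicate number in the labels. The number of members called was 0 under every alternative run, except in both pools without control replicate 3, where it was 1 (ccnb1). In that fit pool and library volume cannot be told apart. Leaving out each control in turn gave 0 to 1 members called in both pools. The 2-fold rule gave 0 members under every alternative. Median log2 fold changes of the members in the pool of 10, the pool of 25 and both pools were 0.17, 0.46 and 0.38 with log2(TPM + 1), 0.17, 0.46 and 0.39 with log2(TPM + 0.1), and -0.0068, 0.19 and 0.095 with the volume term. Over all genes tested, the medians of the same fits were 0.33, 0.41 and 0.36, then 0.43, 0.52 and 0.45, and then 0.00, 0.00 and 0.02. In CPM the members' medians were -0.32, -0.22 and -0.19, beside -0.11, -0.12 and -0.08 over all genes. The SD of the member median between controls was 0.281. Leaving out each control in turn gave medians of -0.36 to -0.17 in the pool of 10, -0.31 to -0.07 in the pool of 25, -0.33 to -0.08 in both pools and 0.17 to 0.20 for the pool of 25 against the pool of 10.

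Signs of single members, as fitted, turned in 70 of the cases run. They were kept in 329 cases with the same call, and in 1 case where the member was newly called. These cases include the pool of 25 against the pool of 10. The values below are as fitted. Medians over all genes with log2(TPM + 1) were 0.33, 0.41 and 0.36 in the pool of 10, the pool of 25 and both pools. With log2(TPM + 1) the pool of 10 was at 0.048 for ccna1, 0.19 for ccna2, 0.085 for ccnb1, 0.16 for ccnb2, 0.088 for ccne2 and 0.44 for ccnd1. The pool of 25 was then at 0.41 for ccna1, 0.30 for ccna2, 0.024 for ccnb1, 0.32 for ccnb2, 0.51 for ccnb3, 0.71 for ccnd1 and 0.21 for cdk1. Both pools were at 0.23 for ccna1, 0.24 for ccna2, 0.054 for ccnb1, 0.24 for ccnb2, 0.52 for ccnb3 and 0.57 for ccnd1, and the pool of 25 against the pool of 10 was at -0.062 for ccnb1. A pseudocount of 0.1 gave the same signs, with ccna1 at 0.049 and ccne2 at 0.11 in the pool of 10, ccnb3 at 0.52 and ccnd1 at 0.72 in the pool of 25, and ccna2 at 0.25, ccnb3 at 0.54 and ccnd1 at 0.58 in both pools. The volume term sets the pools against control replicate 3 alone, the library with 44.0% of its reads unmapped. With this term, ccnb2 was at 0.32 and ccnd1 at 0.025 in the pool of 10. In the pool of 25 this term gave 0.22 for ccna1, 0.39 for ccnb2, 0.35 for ccnb3, 0.16 for ccnd1, 0.097 for cdk1 and -0.0077 for cdk2. In both pools it gave 0.096 for ccna1, 0.35 for ccnb2, 0.52 for ccnb3, -0.075 for ccne2 and 0.094 for ccnd1. With library size alone, ccnd1 was at 0.048 in the pool of 10, 0.24 in the pool of 25 and 0.15 in both. ccna1 was at 0.064 and ccna2 at 0.011 in the pool of 25, and ccnb3 at 0.13 in both pools.

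Leaving out each control in turn, ranges that crossed 0 were -0.24 to 0.28 for ccnb3, -0.22 to 0.13 for ccne1 and -0.28 to 0.047 for ccnd1 in the pool of 10. In the pool of 25 they were -0.37 to 0.14 for ccna1, -0.55 to 0.0052 for ccnb2 and -0.14 to 0.18 for ccnd1. In both pools they were -0.50 to 0.013 for ccna1, -0.38 to 0.13 for ccnb3, -0.079 to 0.26 for ccne1, -0.057 to 0.28 for ccne2 and -0.21 to 0.12 for ccnd1. The cause was not tested, other than that the volume term and the fits without control replicate 3 change the controls in the comparison. With 1 library a pool, intervals are wide, such as -1.89 to 0.54 for ccnb1 in the pool of 10.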
